A study of Mus musculus with 4 samples.

Results

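The 49 genes described here encode the machinery that licenses replication origins and copies DNA in S phase: origin recognition and loading factors, the MCM2-7 helicase and its activators, the sliding clamp and its loader, polymerases, enzymes of nucleotide supply, E2F factors with cyclin E, and factors that rebuild chromatin at the fork. They were taken by name, for their known function, from a table of 55536 mouse genes, and all 49 passed the filter on low counts, among 14259 genes tested. RNA was sequenced from bulge cells, which hold the hair follicle's stem cells, in 4 samples of C57BL/6 mouse skin. In 2 of them, knockouts 1 and 2, the mice carried Cdh5CreERT2, a tamoxifen-inducible Cre recombinase under an endothelial promoter, with both copies of Alk1 floxed. The other 2, controls 1 and 2, came from littermates without Cre, whose Alk1 alleles the labels do not give. Both groups received tamoxifen at 100 µg per g of body weight on postnatal day 17 and were sampled on postnatal day 20, 3 days later, near the time when resting follicles are activated.

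Before S phase, the origin recognition complex with Cdc6 and Cdt1 loads the MCM2-7 ring onto DNA in an inactive form, which is called licensing. The kinase Cdc7 with Dbf4, and then Cdc45 and the GINS complex, turn the ring into a moving helicase. Most genes of this machinery are targets of E2F transcription factors, and many of their transcripts are higher in cells that are entering or passing through the cycle. The level of a member is not by itself a measure of cycling cells. Bulge stem cells are mostly quiescent and divide when a follicle leaves its resting phase. In bulk RNA, fewer cycling cells and less RNA per cycling cell cannot be told apart.

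The promoters of helicase subunits whose transcripts differed in direction are shown first, with that of Mcm10, the member with the lowest fold change. Each is the 250 bases before the RefSeq start (GRCm38.p6), 5′ to 3′ on the gene's strand, and overlaps 0 exons of GENCODE M21. Capitals mark, on both strands, E2F letters (TTTGGCGC, TTTCGCGC, TTTCCCGC or TTTGCCGC), the CCAAT box (CCAAT) and the CHR element of cell cycle genes (TTTGAA). The windows are Mcm2 at chr6:88898781-88899030 (minus strand), Mcm3 at chr1:20820313-20820562 (minus), Mcm5 at chr8:75109259-75109508 (plus), Mcm6 at chr1:128359706-128359955 (minus) and Mcm10 at chr2:5012792-5013041 (minus).
Mcm2: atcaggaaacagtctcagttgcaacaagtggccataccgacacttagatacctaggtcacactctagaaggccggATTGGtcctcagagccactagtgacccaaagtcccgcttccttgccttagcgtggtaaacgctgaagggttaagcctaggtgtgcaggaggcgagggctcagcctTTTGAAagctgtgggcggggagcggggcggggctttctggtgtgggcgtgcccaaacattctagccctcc
Mcm3: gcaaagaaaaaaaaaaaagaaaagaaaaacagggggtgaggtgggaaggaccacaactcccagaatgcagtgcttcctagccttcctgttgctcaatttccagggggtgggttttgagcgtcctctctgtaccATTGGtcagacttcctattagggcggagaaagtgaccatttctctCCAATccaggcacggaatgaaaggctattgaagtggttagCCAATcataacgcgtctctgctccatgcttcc
Mcm5: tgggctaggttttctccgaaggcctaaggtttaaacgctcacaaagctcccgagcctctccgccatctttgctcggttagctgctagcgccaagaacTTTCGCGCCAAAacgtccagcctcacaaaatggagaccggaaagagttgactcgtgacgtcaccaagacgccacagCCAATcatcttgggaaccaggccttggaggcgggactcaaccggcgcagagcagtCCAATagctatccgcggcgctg
Mcm6: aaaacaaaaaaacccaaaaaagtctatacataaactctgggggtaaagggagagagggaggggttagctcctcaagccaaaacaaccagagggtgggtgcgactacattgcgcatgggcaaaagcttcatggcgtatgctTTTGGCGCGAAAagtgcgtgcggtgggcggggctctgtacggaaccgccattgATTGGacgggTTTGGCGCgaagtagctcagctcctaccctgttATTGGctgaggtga
Mcm10: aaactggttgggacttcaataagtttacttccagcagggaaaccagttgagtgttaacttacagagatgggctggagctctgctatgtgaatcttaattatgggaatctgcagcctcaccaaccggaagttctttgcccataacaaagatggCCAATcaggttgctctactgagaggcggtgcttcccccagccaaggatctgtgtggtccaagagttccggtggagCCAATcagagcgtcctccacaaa

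In the Mcm6 window, E2F letters began 110, 106 and 47 bases before the start, and the first pair overlapped in 1 run. In the Mcm5 window, a pair began at 153 and 149 bases and also overlapped. The Mcm2, Mcm3 and Mcm10 windows held none of these E2F letters, while the CCAAT box stood once in Mcm2, 3 times in Mcm3 and in pairs in the other 3. Promoters were at hand for 42 members, counting the most upstream RefSeq start of each. Unlike those printed, some of these windows overlap GENCODE exons. The windows of Cdc6, Mcm7, Dut and E2f1 lie inside the gene as GENCODE annotates it, so they are not upstream of it there. E2F letters stood in 9 of the 42 (21.4%), against 3.48% of 10503 tested genes with a promoter. With the 50 bases after the start added, they stood in 13 (31.0% against 4.14%). Over any annotated start they stood in 11 (26.2% against 3.88%), so the count depends on the window. The CCAAT box stood in 26 (61.9% against 36.2%) and the CHR letters in 6 (14.3% against 10.4%). The median C and G content was 60.4% in member windows and 60% in all. Members with E2F letters had a median log2 fold change of -0.20, with 6 of 9 below 0, and the other 33 a median of -0.16, with 21 below 0. A match describes letters and is not a site.

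None of the 49 members passed the edgeR quasi-likelihood test of knockout against control (smallest Benjamini-Hochberg adjusted p = 0.43). In that test 0.00701% of all tested genes were called higher and 0% lower. At an unadjusted edgeR p under 0.05, 5 members (10.2%) were lower, namely Mcm10, Uhrf1, E2f2, Mcm2 and Cdc7, where 5.94% of all genes were lower. By the same measure 1 member (2.04%) was higher, Rrm2, against 4.8% of all genes. With 2 samples per group, these p-values rest only on the spread between the samples, which may be partly technical. For each gene, edgeR draws that spread towards the spread of other genes. DESeq2 called 0 members, where it called 0.421% of genes lower and 0.16% higher, and limma-voom called 0 members, where it called 0.00701% of genes higher and 0% lower. Uhrf1 (adjusted p = 0.020) and E2f2 (adjusted p = 0.039) passed as lower only in edgeR without a count filter, which called 1.11% of genes lower and 0.678% higher.

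Of 49 fold changes 30 were below 0, and the median log2 fold change was -0.11, beside -0.02 over all tested genes, of which 52.5% were below 0. Both knockouts lay below both controls for 19 members (38.8%, against 23.6% of all genes) and above both for 8 (16.3%, against 21.3%). The median member stood, relative to the control mean, at 0.03 and -0.03 in controls 1 and 2 and at -0.07 and -0.15 in knockouts 1 and 2, on the log2 scale. Most changes were small: 25 of 49 were within 1.2-fold and 2 were past 2-fold.

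**Figure D1:**
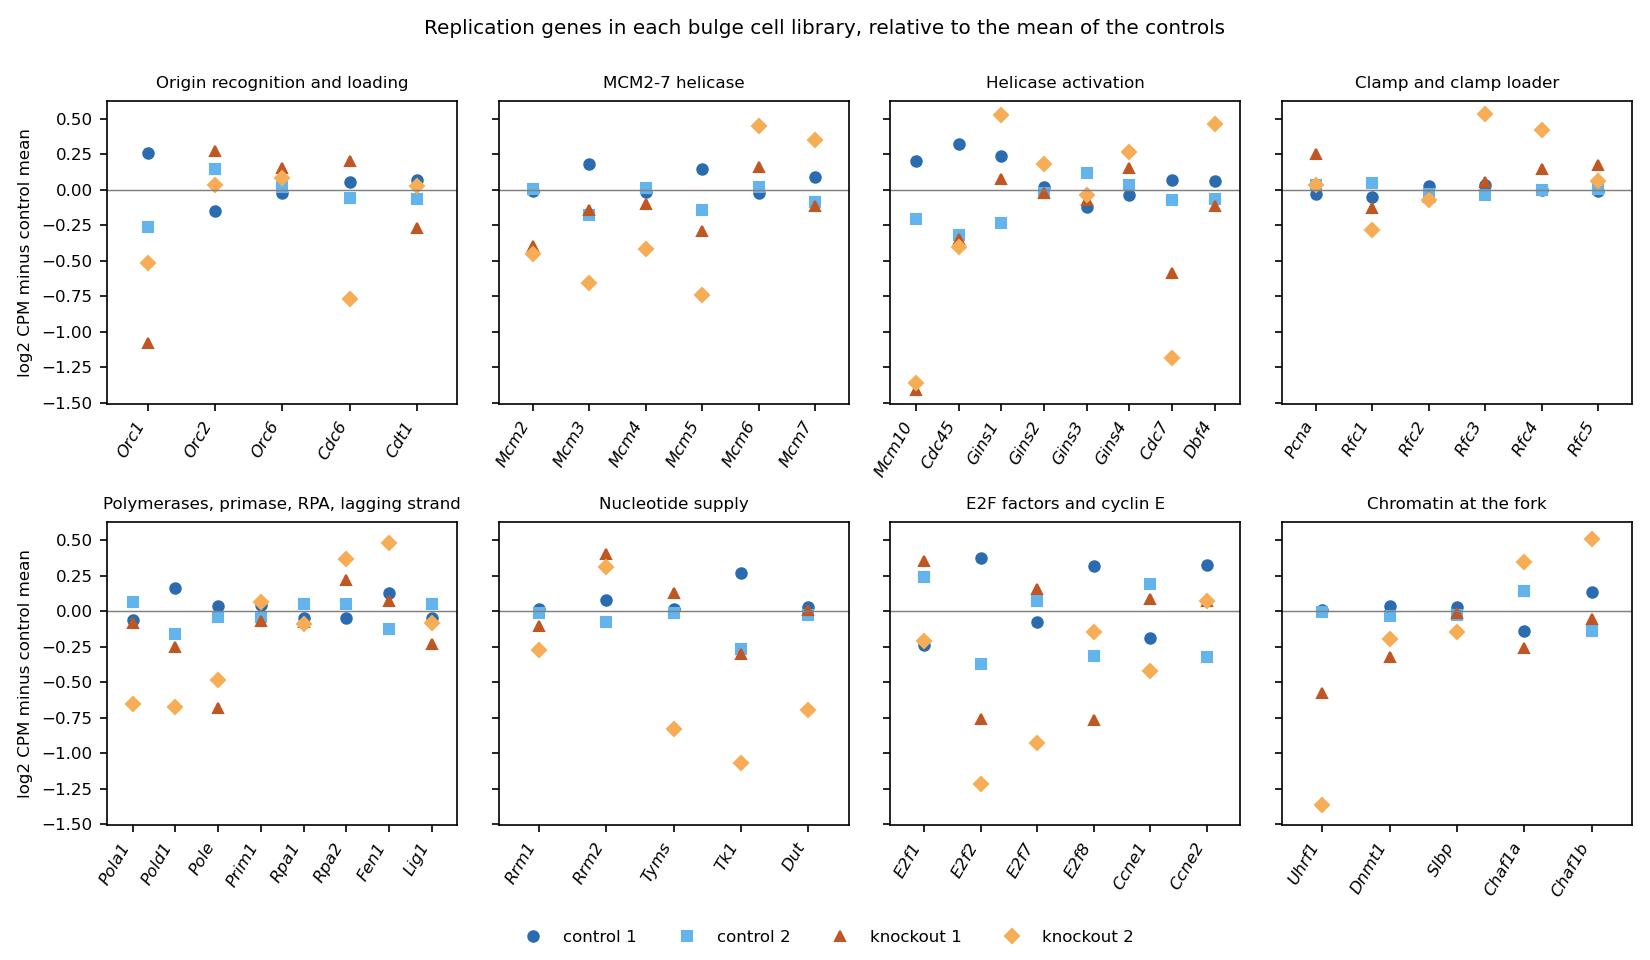
Log2 CPM (prior count of 2) of each of 49 replication genes in each library, minus the mean of the 2 controls, in 8 panels by role. Most points lie within 0.5 of 0, and the deepest low points belong to Mcm10, Uhrf1, E2f2, Cdc7, Orc1 and Tk1 in knockouts.

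**Figure D2:**
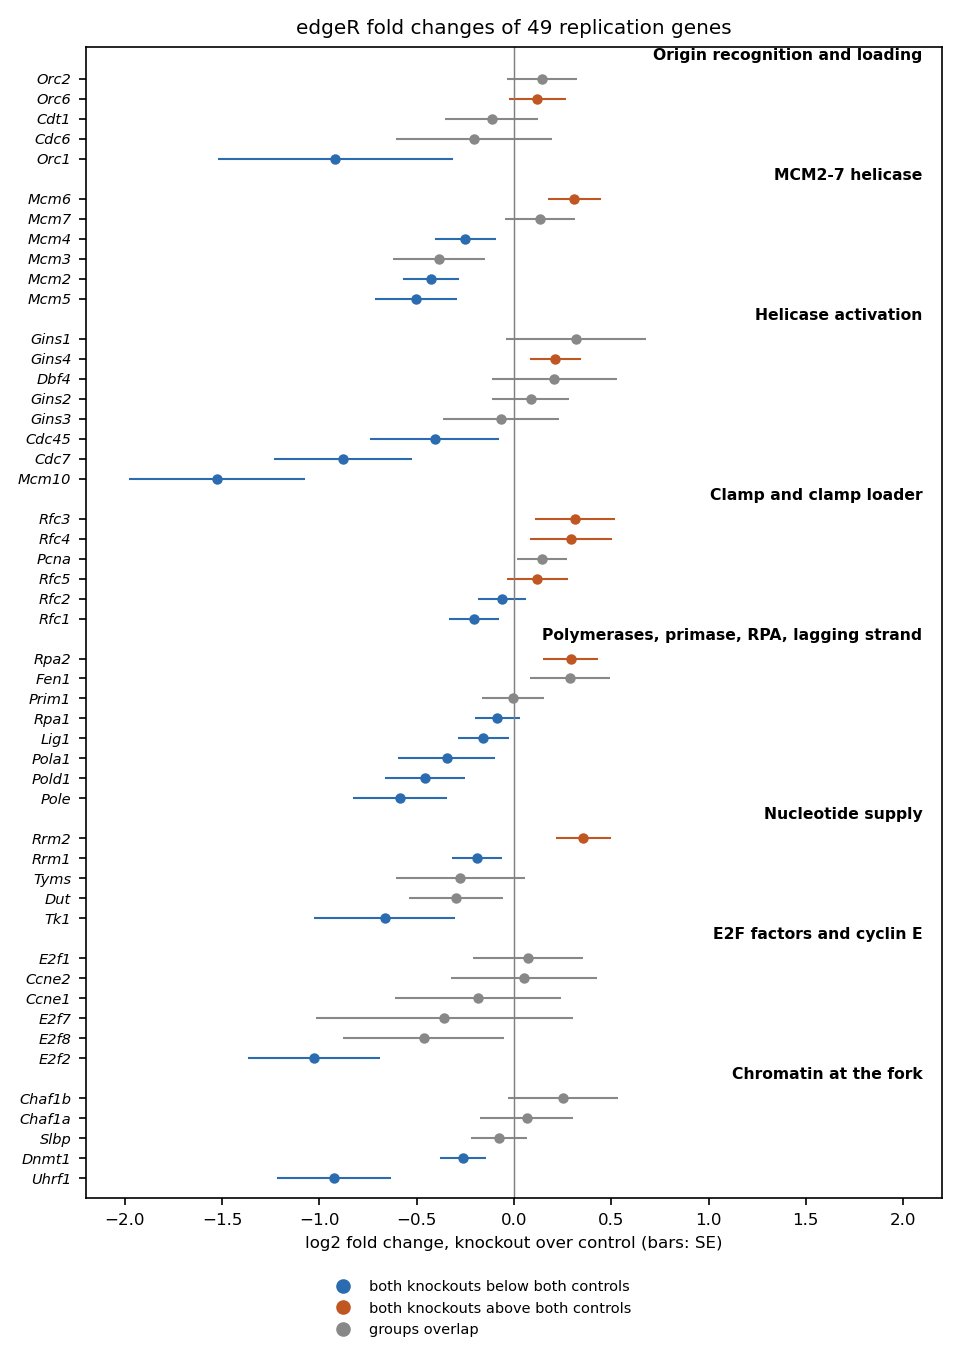
EdgeR log2 fold change (knockout over control) with its SE for each member, by role and coloured by whether the groups overlap. Of the 49 genes, 19 have both knockouts below both controls, 8 have both above and 22 overlap.

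The MCM2-7 helicase, a ring with 1 of each of 6 related subunits, showed members on both sides of 0. Mcm2 to Mcm5, grouped here after their signs were seen, had fold changes below 0 with a median of -0.41, whereas Mcm6 and Mcm7 were above 0. Without knockout 2 the same 4 genes ran from -0.40 (Mcm2) to -0.10 (Mcm4). Levels are CPM, counts scaled to a common library total after TMM normalization, and are given for controls 1 and 2 and then for knockouts 1 and 2. Mcm2 (chromosome 6, 88883474 to 88898780, GRCm38) measured 25.8 and 26.0, then 19.6 and 18.9 CPM (log2 fold change -0.43 ± 0.14 (SE), edgeR adjusted p = 0.43). Mcm5 measured 28.8 and 23.5, then 21.3 and 15.6 CPM (-0.50 ± 0.21, adjusted p = 0.46). The controls of Mcm2 lay close together and well above the knockouts, while those of Mcm5 were spread as widely as the knockouts. Mcm4 also had both knockouts below both controls, at 33.9 and 34.5, then 31.9 and 25.7 CPM (-0.25 ± 0.16). Mcm3 overlapped between groups, at 23.7 and 18.5, then 19.0 and 13.2 CPM (-0.39 ± 0.24).

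Mcm6 (chromosome 1, 128331590 to 128359664) went the other way, at 75.9 and 78.1, then 86.0 and 105 CPM. Its log2 fold change was 0.31 ± 0.14 (SE; edgeR adjusted p = 0.47), and the groups did not overlap. Mcm7 measured 66.9 and 59.2, then 58.2 and 80.2 CPM (0.14 ± 0.18), so that knockout 1 was the lowest library and knockout 2 the highest. Without knockout 2 its log2 fold change was -0.11. Mcm7 shares exon bases with Ap4m1 and Cops6 on the opposite strand, and whether counting used strand is not stated.

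The ratio of Mcm6 to Mcm2 counts within each library was 2.94 and 3.01 in controls and 4.38 and 5.55 in knockouts. Mcm6 over Mcm5 was 2.64 and 3.32, then 4.04 and 6.75, and Mcm6 over Mcm4 was 2.24 and 2.26, then 2.7 and 4.09. In each of these ratios both knockouts were above both controls, and knockout 2 was the higher. Each sets a gene with a fold change above 0 over a gene below 0, which favours such a separation. Mcm6 over Mcm7, both above 0, was 1.14 and 1.32, then 1.48 and 1.31, and overlapped between groups. All ratios given here and below were chosen after their values were seen. With 2 libraries per group an exact permutation test cannot go below p = 0.333 (two-sided). With trends on GC content and exon length taken out, Mcm6 stood at 0.31 and Mcm2 at -0.36 on the log2 scale. Without knockout 2 Mcm6 stood at 0.16 and Mcm5 at -0.29.

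**Figure D3:**
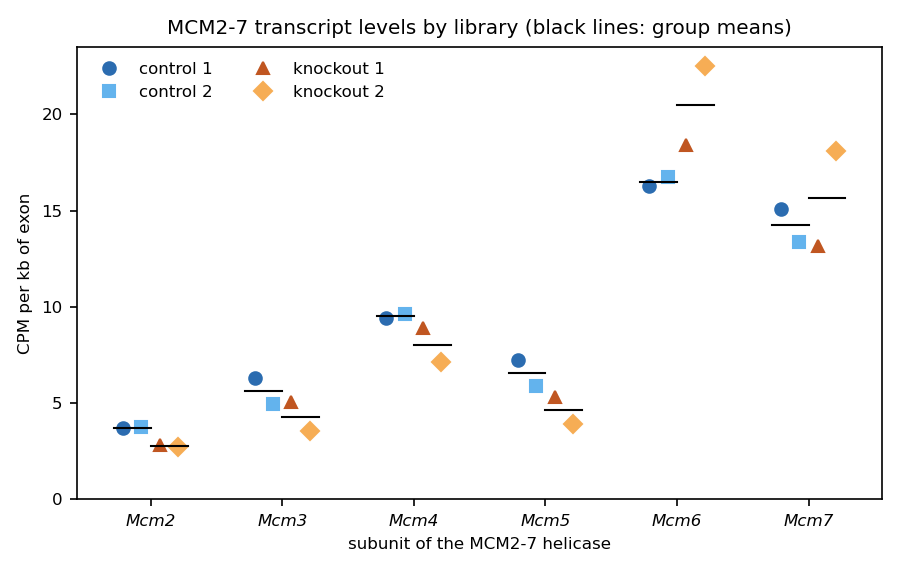
Level of each MCM2-7 subunit in CPM per kb of exon, 1 point per library, with group means as black lines. Mcm6 and Mcm7 lie between 13 and 23 CPM per kb in all libraries and Mcm2 to Mcm5 below 10, and only Mcm6 has both knockouts above both controls.

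Subunits of a ring with equal parts were not at equal transcript levels. Per kb of exon, mean levels over the 4 libraries were 18.5 CPM for Mcm6, 14.9 for Mcm7, 8.77 for Mcm4, 5.58 for Mcm5, 4.96 for Mcm3 and 3.25 for Mcm2. Per kb of the longest protein-coding transcript, Mcm7 (22.3) and Mcm6 (19.8) were again highest, and the other 4 lay between 6.13 and 8.77, so the order of Mcm2, Mcm3 and Mcm5, and that of Mcm6 and Mcm7, depends on the length used.

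Of 5 origin recognition and loading genes 3 were below 0. Their median was -0.11, and it turned to 0.02 without knockout 1 and 0.15 without knockout 2. Orc6, the smallest subunit of the origin recognition complex, measured 20.4 and 21, then 23.0 and 22.0 CPM (log2 fold change 0.12 ± 0.15). Orc2, a core subunit, measured 19.0 and 23.5, then 25.5 and 21.6 CPM (0.15 ± 0.18). The controls of Orc2 differed more than its group means, and it stood at 0.006 without control 1 and 0.33 without control 2. Per kb of exon, the mean levels of Orc6 and Orc2 were 8.75 and 5.81 CPM. Orc1, the subunit that recruits Cdc6 and is made anew in each cycle, was near the floor at 0.718 and 0.474, then 0.230 and 0.383 CPM (-0.92 ± 0.60). The loading factors Cdc6 (-0.20 ± 0.40) and Cdt1 (-0.11 ± 0.24) overlapped between groups. Exons of Orc1, Orc2 and Orc6 overlap those of genes on the opposite strand.

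The 8 genes that activate the helicase had a median of 0.01, with 4 below 0, and held the lowest fold change of the 49 members. Mcm10 (chromosome 2, 4989714 to 5012791), which helps the loaded helicase to start and is no part of the ring, measured 1.74 and 1.29, then 0.506 and 0.527 CPM. Its log2 fold change was -1.53 ± 0.45 (SE; edgeR adjusted p = 0.43), from -1.71 to -1.31 over the alternative settings. Its counts were low, and it failed a stricter filter (50 counts in each of 2 libraries). Cdc7, the kinase that fires licensed origins, measured 3.89 and 3.52, then 2.44 and 1.58 CPM (-0.88 ± 0.36, adjusted p = 0.46). Dbf4, its activating partner, measured 4.07 and 3.73, then 3.59 and 5.41 CPM (0.21 ± 0.32). Neither passed the test, and Dbf4 turned to -0.12 without knockout 2. Cdc45, the third part of the active helicase beside MCM2-7 and GINS, gave -0.41 ± 0.33, with control 1 (5.75 CPM) standing apart from the other 3 libraries (3.45 to 3.66 CPM).

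The 4 GINS subunits lay between -0.07 and 0.32. Gins4 measured 30.0 and 31.5, then 34.3 and 37.1 CPM (log2 fold change 0.21 ± 0.13), with both knockouts above both controls. Gins2 measured 10.8 and 10.5, then 10.5 and 12.1 CPM (0.09 ± 0.20). Gins1 (0.32 ± 0.36) and Gins3 (-0.07 ± 0.30) were low and overlapped. Per kb of exon, Gins4 was at 24.6 CPM, against 2.68 for Gins2, 1.89 for Gins1 and 1.23 for Gins3, although the complex holds 1 of each. In the annotation 2758 exon bases of Gins2 overlap Gse1 on the opposite strand.

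Of the 6 genes of the clamp and its loader 4 were above 0, with a median of 0.13 that was 0.045 without knockout 1. Pcna, the sliding clamp that holds polymerases on DNA, measured 86.3 and 90.1, then 105 and 90.1 CPM (log2 fold change 0.15 ± 0.13, edgeR adjusted p = 0.68). Without knockout 1, its highest library, the log2 fold change was 0.03. At 38.7 CPM per kb of exon it had the highest level of the 49. Rfc1, the large subunit of the clamp loader, had both knockouts below both controls at 58.2 and 62.2, then 55.2 and 49.4 CPM (-0.20 ± 0.13). Rfc3, a small subunit, had both above at 17.6 and 16.8, then 17.9 and 24.9 CPM (0.31 ± 0.21), a difference that rested on knockout 2 (0.06 without it). The small subunits Rfc4 (0.29 ± 0.21) and Rfc5 (0.12 ± 0.16) also had both knockouts above, and Rfc2 (-0.06 ± 0.12) had both below. Large and small subunits of the loader thus lay on both sides of 0.

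The catalytic subunits of the 3 replicative polymerases all had both knockouts below both controls, as did 23.6% of all tested genes. Pole, the leading strand polymerase, measured 8.08 and 7.65, then 4.87 and 5.60 CPM (log2 fold change -0.59 ± 0.24, edgeR adjusted p = 0.46). Pold1, of the lagging strand polymerase, measured 32.5 and 25.9, then 24.3 and 18.2 CPM (-0.46 ± 0.20). Pola1, of the priming polymerase, measured 13.3 and 14.5, then 13.1 and 8.76 CPM (-0.35 ± 0.25). For Pole the knockouts stood well apart from the controls, while for Pola1 knockout 1 lay just under control 1. Prim1, the primase that Pola1 works with, gave -0.004 ± 0.16, with the 4 libraries between 18.3 and 20.1 CPM. Other subunits of these polymerases, not among the members, did not share 1 direction. Pole2 (0.33) and Pold3 (0.17) had both knockouts above both controls, and Pola2 (-0.28) had both below. Pold2 (-0.23), Pole3 (0.16) and Pole4 (-0.03) overlapped between groups.

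Subunits of RPA, which coats single-stranded DNA, lay on both sides of 0. Rpa1 measured 71.3 and 76.6, then 69.9 and 69.4 CPM (log2 fold change -0.09 ± 0.12), and Rpa2 measured 25.5 and 27.4, then 30.7 and 34.1 CPM (0.29 ± 0.14, edgeR adjusted p = 0.50). The Rpa2 to Rpa1 ratio was 0.358 in each control and 0.439 and 0.492 in knockouts. Fen1, which trims the flaps of Okazaki fragments, measured 19.2 and 16.1, then 18.5 and 24.6 CPM (0.29 ± 0.21, and 0.07 without knockout 2). Its groups overlapped, and 1908 of its exon bases are shared with an antisense gene, Gm10143. Lig1, which seals those fragments, gave -0.16 ± 0.13, with both knockouts below both controls.

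Nucleotide supply held the member with the highest fold change. Rrm2 (chromosome 12, 24708241 to 24714146), the small subunit of ribonucleotide reductase and the one made chiefly in S phase, measured 25.6 and 23.0, then 32.0 and 30.1 CPM, with both knockouts above both controls. Its log2 fold change was 0.36 ± 0.14 (SE; edgeR adjusted p = 0.46), and it stayed between 0.30 and 0.43 over the alternative settings. Rrm1, the large subunit, measured 53.2 and 52.0, then 48.8 and 43.4 CPM (-0.19 ± 0.13). The Rrm2 to Rrm1 ratio was thus 0.481 and 0.442 in controls and 0.655 and 0.693 in knockouts. After removal of the length and GC trends, the log2 fold changes of Rrm2 and Rrm1 were 0.30 and -0.06.

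In the other 3 genes of this role, knockout 2 was the lowest library. Dut, which removes dUTP, measured 30.4 and 29.2, then 30.0 and 18.4 CPM (log2 fold change -0.30 ± 0.24), and gave 0.01 without knockout 2. Tyms, which makes thymidylate, measured 12.5 and 12.2, then 13.5 and 6.90 CPM (-0.28 ± 0.33). Tk1, the salvage kinase for thymidine, measured 8.38 and 5.76, then 5.61 and 3.26 CPM (-0.66 ± 0.36). For Dut and Tyms knockout 1 was within or above the controls. The role's median was -0.28, with 4 of 5 below 0, and it was 0.01 without knockout 2 and -0.70 without knockout 1. Tyms has a processed copy in the annotation, as does Pcna, whose reads the counting could share.

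Of the E2F and cyclin E genes 4 of 6 were below 0, with a median of -0.27 (0.06 without knockout 2). E2f2 (chromosome 4, 136172394 to 136196057), an activator E2F, measured 12.8 and 7.55, then 5.75 and 4.17 CPM. Its log2 fold change was -1.03 ± 0.34 (SE; edgeR adjusted p = 0.43), and -0.61 without control 1, the highest library. E2f1, the other activator among the members, measured 8.92 and 12.5, then 13.5 and 9.10 CPM (0.07 ± 0.28). Its sign turned without control 1 (-0.14) and without knockout 1 (-0.24). The repressors E2f7 (-0.36 ± 0.66) and E2f8 (-0.46 ± 0.41), and the cyclins Ccne1 (-0.18 ± 0.43) and Ccne2 (0.05 ± 0.38), which drive entry into S phase, were under 4 CPM in each library and overlapped.

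Of the factors that restore chromatin behind the fork, Uhrf1 had the lowest fold change. Uhrf1 (chromosome 17, 56303321 to 56323486), which reads hemimethylated DNA and brings Dnmt1 to it, measured 15.8 and 15.6, then 10.5 and 6.03 CPM. The log2 fold change was -0.92 ± 0.29 (SE; edgeR adjusted p = 0.43), -1.38 without knockout 1 and -0.58 without knockout 2. Dnmt1, the methyltransferase that copies the methylation pattern, measured 97.0 and 92.5, then 75.6 and 82.6 CPM (-0.26 ± 0.12, adjusted p = 0.48). Both genes had both knockouts below both controls. Slbp, which binds the end of histone messages, measured 25.7 and 24.7, then 25 and 22.7 CPM (-0.08 ± 0.14). Chaf1a (0.07 ± 0.24) and Chaf1b (0.25 ± 0.28), subunits of the histone loader CAF-1, overlapped between groups and were highest in knockout 2.

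Members with low transcript levels had the lower fold changes. Over the 49 members, which share the same 4 libraries, log2 fold change and mean CPM had a Spearman correlation of 0.33, against 0.16 over all tested genes. Of 17 members under 10 CPM, 13 were below 0 with a median of -0.36, beside -0.13 for all 4949 tested genes under 10 CPM. Among them both knockouts lay below both controls for 7 (41.2%, against 26.2% of all tested genes under 10 CPM) and above both for 0 (against 12.7%). Of 32 members at or above 10 CPM, 17 were below 0 with a median of -0.03, beside 0.01 for 9310 tested genes at that level. For 12 of these 32 members both knockouts lay below both controls (37.5%, against 22.3% of all tested genes at that level). For 8 they lay above both (25%, against 25.8%). This division was chosen after the values were seen. Log2 fold change and exon length had a Spearman correlation of -0.43 over the members and -0.25 over all tested genes, and -0.28 over the members after removal of the length and GC trends.

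**Figure D4:**
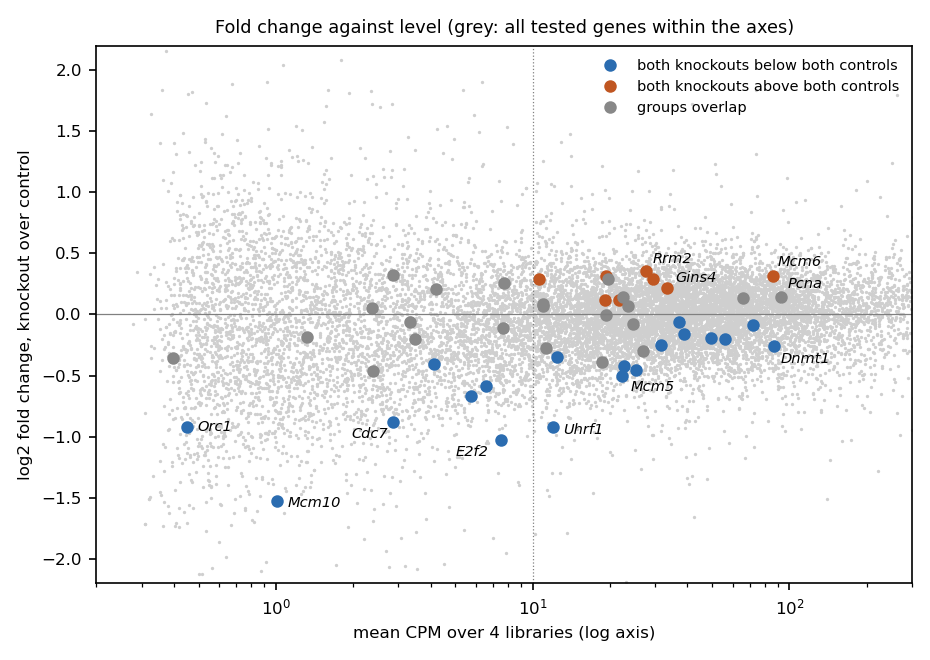
EdgeR log2 fold change against mean CPM over the 4 libraries (log axis) for the members, coloured by overlap of the groups, and for all tested genes in grey. Left of the dotted line at 10 CPM no member has both knockouts above both controls, where 12.7% of all tested genes do. The 8 members that do lie to its right (25% of the 32 members there, against 25.8% of all tested genes).

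A list of 75 other replication and G1/S genes, of which 74 were tested, had 0 members past the edgeR test and 45 below 0, with a median log2 fold change of -0.06. At an unadjusted edgeR p under 0.05, 7 were lower (9.46%, against 5.94% of all tested genes) and 2 higher (2.7%, against 4.8%). The lowest p-values were those of Ccnd2, a D cyclin (140 and 146, then 112 and 91.2 CPM, -0.49 ± 0.14), Pclaf, a partner of the clamp (5.81 and 4.17, then 2.44 and 2.06 CPM, -1.14 ± 0.33), and Ccna2, the S phase cyclin (10 and 6.27, then 4.6 and 2.97 CPM, -1.09 ± 0.36). On the higher side stood Nasp, a histone chaperone (89.0 and 99.7, then 118 and 121 CPM, 0.34 ± 0.12), Ctps, which makes CTP (28 and 31.9, then 45.7 and 36.9 CPM, 0.46 ± 0.16), and Cdkn1c, a CDK inhibitor (8.38 and 8.16, then 9.93 and 15.9 CPM, 0.64 ± 0.27). In all 6, which were picked by smallest p, the groups did not overlap, and the edgeR adjusted p was 0.43 or 0.47. Over the 74 genes both knockouts lay below both controls for 24 (32.4%, against 23.6% of all tested genes). They lay above both for 15 (20.3%, against 21.3%). Within the list, 14 genes of origin firing and fork protection had the lowest median of its groups, at -0.43, with 12 below 0. Of all tested genes 52.5% were below 0, and of those under 10 CPM 59.8%. The 20 further replication subunits had 10 below 0 and a median of 0.02. The medians were -0.03 for histone chaperones, -0.09 for other nucleotide metabolism and -0.05 for G1/S control.

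A list of 20 mitosis genes is given for comparison. All 20 were below 0 with a median of -0.90, against 52.5% of all tested genes below 0. Both knockouts lay below both controls for 18 (90%, against 23.6% of all tested genes). The 20 genes summed to only 129 and 86.7, then 66.5 and 53.9 CPM. Of all tested genes under 10 CPM, 59.8% were below 0, with a median of -0.13, and 26.2% had both knockouts below both controls. Relative to the control mean, the median mitosis gene stood at 0.27 and -0.27 in controls and at -0.67 and -1.04 in knockouts. Mki67 measured 10.3 and 7.52, then 4.46 and 4.12 CPM, and Top2a 26.6 and 19.1, then 13.4 and 10 CPM. Neither passed (edgeR adjusted p = 0.43 for each), and the difference between the lists was not tested.

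**Figure D5:**
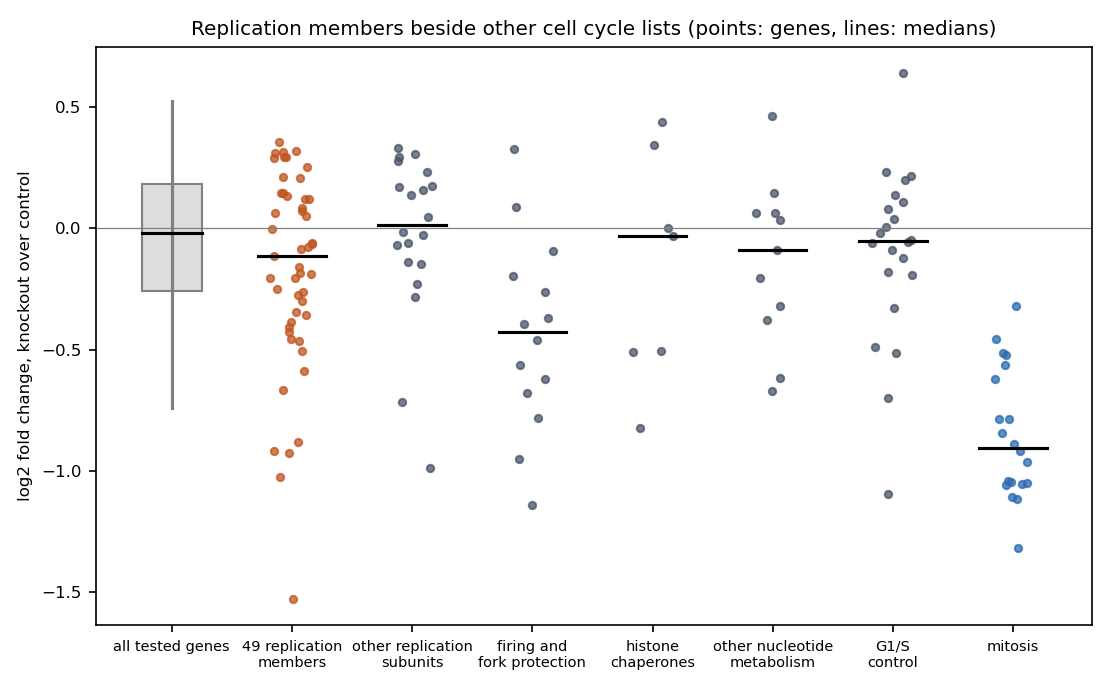
EdgeR log2 fold changes of the members, 5 groups of other replication and G1/S genes, and mitosis genes (points: genes, black lines: medians). The box for all tested genes spans the 25th to the 75th percentile, with its line from the 5th to the 95th percentile. The members' median is -0.11 and that of mitosis genes -0.90, with all 20 mitosis genes below 0.

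The libraries held 16326906 to 29130974 counts, the smallest in control 1 and the largest in control 2. Bulge stem cell markers were present throughout (10 of 10 tested, 62804 to 77792 CPM in sum), and endothelial markers were sparse (4 of 7 tested, 22.1 to 38.5 CPM in sum). The bulge list includes Krt5, Krt14 and Itga6, which are not particular to the bulge, so its sum does not measure how pure the bulge cells were. The endothelial sums were 30.5 and 28.7, then 22.1 and 38.5 CPM. Most of each sum came from Acvrl1, which encodes Alk1 and is among those 7 markers. Acvrl1 measured 21.6 and 24.3, then 17.9 and 23.1 CPM. Its deletion was directed at endothelium, so this does not check the labels. Interfollicular differentiation markers summed to 12287 and 4167, then 8083 and 3676 CPM, and sebaceous gland markers to 728 and 440, then 460 and 346 CPM. In both lists number 2 was the lower library of each group, as it was for the median member. Immune cell markers went the same way (59.8 and 47.8, then 61.1 and 57.9 CPM). Number 2 was the higher library for fibroblast markers (183 and 233, then 136 and 140 CPM). Melanocyte (113 and 133, then 85.7 and 88.8 CPM) and hair germ markers (244 and 257, then 281 and 325 CPM) did likewise. The sums of fibroblast and melanocyte markers were lower in both knockouts than in both controls, and that of hair germ markers was higher. By gene, 2 of 5 tested fibroblast markers and 2 of 4 melanocyte markers had both knockouts below both controls (23.6% of all tested genes). Both knockouts lay above both controls for 2 of 5 tested hair germ markers (21.3% of all tested genes). The part of such cells in these results was not tested. The 49 members summed to 1154 and 1132, then 1109 and 1104 CPM.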

How the data were processed

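RNA-seq of 4 libraries was deposited as raw counts per gene, per the labels. Per the submitters' processing notes, Trim Galore 0.6.0, cutadapt, FastQC, STAR 2.7.0e and DESeq2 1.26.0 were used with GRCm38 (mm10). Not given in the sources used here were the counting tool, strandedness and annotation, so overlapping genes (18 members) and near-identical copies are uncertain. Neither was the method of isolating bulge cells.

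All 55536 identifiers matched GENCODE M21. In R 4.3.3, genes kept by edgeR 4.0.16's filterByExpr were TMM-normalized and compared by the quasi-likelihood test (robust, no covariates), with Benjamini-Hochberg adjustment over all 14259 tested genes and a threshold of 0.05. CPM used effective library sizes. Alternatives used DESeq2 1.42.0 and limma-voom 3.58.1, other normalizations and filters, a block for the replicate number, leaving out each library in turn, and a length and GC trend removed through offsets. The test was tested on simulated data. Whether same-numbered mice were paired is not in the labels. The p-values rest on the spread between 2 samples per group, drawn for each gene towards that of other genes.

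The members and lists were chosen with earlier results of these data known. Values per library are given for the 6 members of smallest p in each direction and the 2 of highest CPM per kb in each role. Of other pathway genes, the 3 of smallest p in each direction were named. Further members were given values after these were seen.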

Additional observations from a re-analysis of the deposited data

How the results depend on the processing

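The count of members called was 0 in 11 of 12 alternative settings. In 4 of these a library was left out, and the group left with 1 library was assumed to vary like the other. Without a count filter edgeR called 2 lower, E2f2 (-1.03) and Uhrf1 (-0.93). Over all genes, 1 higher and 0 lower calls became 163 and 267 without the filter, 22 and 58 with DESeq2, and 1 to 39 and 0 to 26 with each library left out, the most without knockout 1. With the replicate block the calls were 25 and 81, with 0 members. Deviations of same-numbered samples correlated at 0.122, and the labels share only numbers, so no pairing was assumed.

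Median log2 fold changes with each library left out ranged from -0.16 to 0.15 for origin recognition, -0.44 to -0.13 for MCM2-7, -0.10 to 0.088 for helicase activation, 0.045 to 0.17 for the clamp, -0.17 to -0.054 for polymerases, -0.70 to 0.012 for nucleotide supply, -0.36 to 0.058 for E2F and cyclin E and -0.27 to -0.070 for chromatin factors. The origin recognition median was -0.0073 with at least 50 counts, and the clamp median 0.10 with the length and GC trends removed. The polymerase median was -0.11 with RLE or DESeq2, -0.13 without a filter or with at least 50 counts, and -0.12 with the trends removed.

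Leaving out 1 library turned the sign of 15 of the 49 members: Dut (-0.70 to 0.012), E2f1 (-0.24 to 0.36), Gins2 (-0.018 to 0.18), Mcm7 (-0.11 to 0.35), Ccne1, Ccne2, Cdc6, Cdt1, Chaf1a, Chaf1b, Dbf4, E2f7, Gins3, Prim1 and Tyms. The cause was not tested. Chosen after seeing the data, the members' median was -0.032 at or above 10 CPM, -0.36 under it and -0.20 without the 18 members with overlapping exons. Their median level was 4.04 CPM per kb of exon and 6.29 per kb of transcript. Depth was least for members such as Orc1, with 5 to 14 counts per library.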
